A study of Homo sapiens with 10 samples.

Results

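The regions described here carried acetylation of histone H3 at lysine 18 (H3K18ac) in both C4-2B and C4-2BER cells and acetylation at lysine 27 (H3K27ac) in neither. They were selected on the peak calls themselves. H3K18ac peaks of the 2 cell lines that overlapped by at least 1 bp were merged into 247646 regions, of which 125361 held a peak from each line. Of these shared regions, 61172 overlapped no H3K27ac peak of either line and are the members, 48.8% of the shared regions. The remaining 64189 shared regions carried H3K27ac, in both lines at 42450, in C4-2B alone at 8601 and in C4-2BER alone at 13138.

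Both acetyl marks are placed on the tail of histone H3 by the acetyltransferases CBP and p300, and both are found at active promoters and enhancers. H3K27ac is the mark most often used to call an enhancer active, and the same lysine can instead be methylated by the Polycomb repressive complex, which silences developmental genes. H3K18ac can be removed by the deacetylase SIRT7.

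C4-2B cells come from a prostate adenocarcinoma that grows despite castration. C4-2BER is 1 line derived from it by growth under the antiandrogen enzalutamide, and is described as neuroendocrine-like. The study's methods keep C4-2BER cells in the drug, so line and drug exposure cannot be told apart. ChIP-seq, in which an antibody pulls down DNA bound to the modified histone, was made in 2 libraries per mark and line, beside 1 input library per line. The replicates were merged before peak calling, so every value below comes from a pool, has no replicate error and allows no test between the lines. The deposited lists held 198451 H3K18ac peaks in C4-2B and 197948 in C4-2BER, against 68034 and 72971 H3K27ac peaks. They hold no read counts, so the depth is unknown, and a region without an H3K27ac peak may carry the mark below the threshold of the caller. The values are fold enrichments of each peak over its local background, scaled within each list.

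The promoters of the prostate luminal genes KLK2, KLK3, TMPRSS2, FOXA1 and HOXB13 and of the epithelial genes KRT8, KRT18, EPCAM and CDH1 held peaks of both marks in both lines. Of the neuroendocrine genes, SYP and ENO2 did so too, and CHGA, NCAM1 and INSM1 had H3K18ac without H3K27ac in either line. The pan-leukocyte gene PTPRC and the T-cell gene CD3E had no promoter peak. The stromal gene COL1A1 carried both marks, while COL1A2 and the endothelial gene PECAM1 were among the promoters with H3K18ac alone.

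The sequences of 4 members are given as examples of neuroendocrine promoters and of strong distal members, and they do not stand for the typical base composition. The first pair are the 150 bases before the canonical start of a neuroendocrine gene, on the plus strand of GRCh38, inside a member that covers the start. They lie at chr20:17226890-17227039 and chr14:92923000-92923149. The next pair are the central 150 bases of strong members away from promoters, at chr4:9000942-9001091 and chr11:27206912-27207061. Capitals mark CG pairs, the sites of DNA methylation, and their number is 8, 13, 15 and 4 in the order shown.
PCSK2 promoter: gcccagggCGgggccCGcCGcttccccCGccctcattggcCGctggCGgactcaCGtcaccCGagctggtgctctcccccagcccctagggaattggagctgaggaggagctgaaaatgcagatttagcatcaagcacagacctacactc
CHGA promoter: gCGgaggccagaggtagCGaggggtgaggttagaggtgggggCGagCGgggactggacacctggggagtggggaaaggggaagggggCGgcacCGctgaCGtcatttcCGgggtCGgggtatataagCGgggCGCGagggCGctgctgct
Member upstream of HMX1: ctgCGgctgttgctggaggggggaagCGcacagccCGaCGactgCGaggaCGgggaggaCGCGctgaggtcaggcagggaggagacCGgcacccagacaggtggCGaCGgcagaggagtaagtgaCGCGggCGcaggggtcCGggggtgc
Member in BBOX1-AS1: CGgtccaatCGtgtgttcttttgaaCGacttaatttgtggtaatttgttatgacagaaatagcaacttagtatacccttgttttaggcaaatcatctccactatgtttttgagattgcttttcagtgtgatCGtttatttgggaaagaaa
The GC content of the 4 stretches was 64.7%, 69.3%, 72.0% and 34.7%, while over the central 500 bp of all members the median was 50.8%, with 5% of members under 38% and 5% over 62.2%. The promoter stretches and the intergenic one held more CG pairs than the intronic one.

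The members were weaker and narrower than the shared regions with H3K27ac. These values are part of how peaks are called and are given as a description. The median H3K18ac fold of the members was 2.65 in C4-2B and 2.39 in C4-2BER. In shared regions with H3K27ac in both lines it was 4.22 and 4.14. With H3K27ac in C4-2B alone it was 3.24 and 2.54, and with H3K27ac in C4-2BER alone 2.74 and 3.07, nearer to the members. The median width was 1097 bp, with 5% of members under 325 bp and 5% over 3927 bp, against a median of 2781 bp with H3K27ac in both lines. It was 1452 bp with H3K27ac in C4-2B alone and 1793 bp with H3K27ac in C4-2BER alone. Regions with an H3K18ac peak in 1 line and no H3K27ac had a median width of 460 bp. At the members, the median −log10 q-value, the caller's measure of confidence, was 2.37 in C4-2B and 2.20 in C4-2BER. It was 10.1 and 12.9 in regions with H3K27ac in both lines. With H3K27ac in C4-2B alone it was 4.45 and 2.86, and with H3K27ac in C4-2BER alone 2.89 and 5.46. Each region was also given the lower of its folds in the 2 lines, called its lower fold below. In the weakest decile of shared regions by lower fold, 83.1% were members. The share fell with each stronger decile, to 52.7% in the sixth, 15.1% in the eighth and 2.25% in the ninth. In the strongest decile, with lower folds from 4.82 to 16.5, 1 of 12536 regions lacked H3K27ac. In 94.2% of members a single peak of each line made up the region, against 76.4% where H3K27ac was present in both lines.

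**Figure D1:**
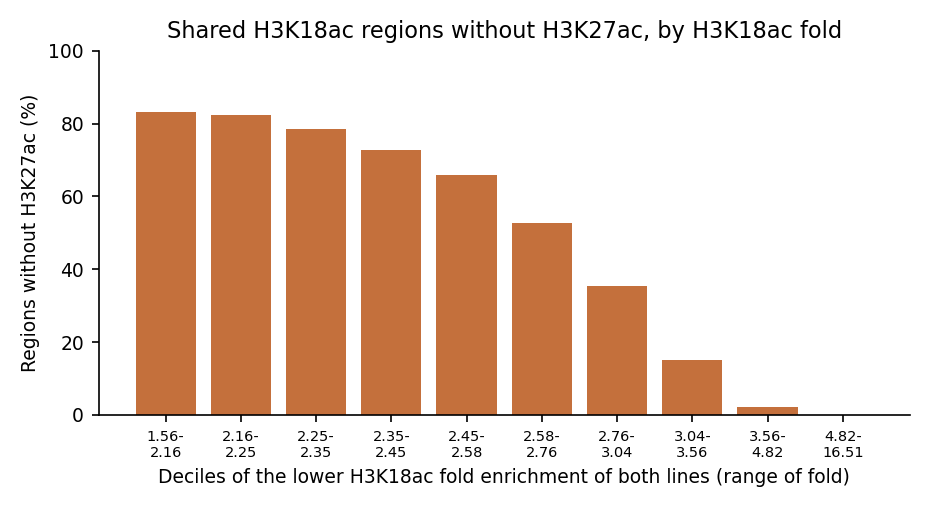
Bars give the percentage of shared H3K18ac regions that overlapped no H3K27ac peak of either line (y axis), in deciles of the lower of the H3K18ac folds of both lines (x axis, range of fold in each decile). The share falls from 83.1% in the weakest decile to 15.1% in the eighth and to 1 region of 12536 in the strongest.

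Few regions lay near the edge of the rule. An H3K27ac peak began within 200 bp of 26 members, whose median H3K18ac fold was 2.53 in C4-2B and 2.27 in C4-2BER. Just outside, 202 shared regions overlapped H3K27ac by at most 200 bp, and their medians were 2.51 and 2.31. The regions on either side of the edge thus had nearly equal H3K18ac.

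Members were ranked by their lower fold, an order that favours regions with close folds in the 2 lines. The highest fold of any member was 6.37 in C4-2B and 5.635 in C4-2BER. The strongest member by lower fold, chr4:9000491-9001542, had a fold of 5.24 in C4-2B and 4.96 in C4-2BER. It was intergenic, 129177 bp upstream of HMX1, a homeobox gene, and 128355 bp from the nearest H3K27ac peak. Next came chr13:111893091-111894558, with folds of 5.19 and 4.70, in an intron of LINC00354 and 173325 bp upstream of SOX1, a neural transcription factor gene. The member at chr8:52753098-52753705, with 5.11 and 4.60, lay 7558 bp upstream of the autophagy gene RB1CC1. A region in an intron of BBOX1-AS1, chr11:27206582-27207391, had 4.51 and 4.53. The fifth, chr3:156217942-156218535, was in an intron of KCNAB1, which encodes an accessory subunit of potassium channels, with 4.47 and 4.89. The folds of the 2 lines were close at each of these, which the ranking favours. The other 5 of the 10 strongest members had folds between 4.37 and 4.76 in both lines. They lay in an annotated exon within TRIM2, at the promoter of FTMT, in introns of CCSER1 and CD96, and 784185 bp from SI, which encodes an intestinal disaccharidase. Of these 10 members, 1 had its centre within 2000 bp of a protein-coding start, at FTMT, the gene of mitochondrial ferritin. Only 44 members had a fold of 4 or more in both lines.

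The 5 widest members lay inside large genes. The widest, chr15:25224770-25248927, spanned 24158 bp of SNHG14, the imprinted noncoding gene that hosts small nucleolar RNAs, and its fold was 2.80 in C4-2B and 2.16 in C4-2BER. A pair lay in introns of PRDM16, a zinc finger regulator of brown fat and hematopoiesis, at chr1:3275300-3299228 with folds of 2.70 and 2.27 and at chr1:3089077-3111465 with 2.85 and 2.60. The others were chr22:44925440-44948672 in PHF21B, with 2.88 and 2.41, and chr7:158263475-158285652 in PTPRN2, a secretory granule protein gene, with 2.88 and 2.60. All 5 had the higher fold in C4-2B, as did most members. The fold was higher in C4-2BER at 25.9% of members and at 32.6% of all shared regions. In C4-2BER these regions were split into 2 to 6 peaks, and in C4-2B into 1 or 2.

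The members lay mostly away from promoters, which reach from 2000 bp before to 500 bp after every annotated start of a protein-coding or lncRNA gene (GENCODE release 44). A promoter window was overlapped by 7062 members, 11.5% (95% Wilson interval, 11.3% to 11.8%), against 45.6% (45.1% to 46.1%) of shared regions with H3K27ac in both lines. Such intervals reflect counting error, or the spread over regions for medians, and no replicate error. The share was 16.8% with H3K27ac in C4-2B alone and 15.4% with H3K27ac in C4-2BER alone. Of regions with an H3K18ac peak in 1 line and no H3K27ac, 8.19% overlapped a promoter window, fewer than of the members. By their centre, 33604 members (54.9%) were intronic, 24152 (39.5%) intergenic and 3416 (5.58%) exonic. With H3K27ac in both lines, 56.9% were intronic, 25.9% intergenic and 17.3% exonic. The median distance of a member's centre to the nearest start site was 16.3 kb, against 4.64 kb with H3K27ac in both lines. It was 12.99 kb with H3K27ac in C4-2B alone and 12.96 kb with H3K27ac in C4-2BER alone. For regions with an H3K18ac peak in 1 line and no H3K27ac it was 16.6 kb. The difference in promoter share between members and regions with H3K27ac varied with the strength of H3K18ac. Among shared regions with a lower fold of at least 3 and under 3.5, the centre fell in a promoter window in 10.1% of 2156 members (8.91% to 11.5%) and in 12.7% of 10507 regions with H3K27ac (12.1% to 13.4%). In the range from 2 to 2.5 the shares were 7.93% and 12.7%. From 3.5 to 4 the shares were 9.57% of 324 members (6.82% to 13.3%) and 18.7% of 6721 regions with H3K27ac (17.7% to 19.6%). At a fold of 4 or more they were 13.6% of 44 members (6.40% to 26.7%) and 53.5% of 19153 regions with H3K27ac (52.8% to 54.2%). Members thus had the lower share in each of these ranges, and the gap was smallest from 3 to 3.5.

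Most members had an H3K27ac peak in their wider neighbourhood. The median gap was 9652 bp (9528 to 9781 bp), with the middle 50% between 3906 and 24300 bp. A gap under 1 kb was found at 776 members (1.27%), one of 1 to 5 kb at 18280, of 5 to 20 kb at 23864 and of 20 to 100 kb at 15381. The remaining 2871 members (4.69%) were at least 100 kb from any H3K27ac peak. Members farther from H3K27ac were narrower and slightly stronger. The median width was 1247 bp at a gap of 1 to 5 kb and 712 bp at 100 kb or more, and the median lower fold was 2.33 and 2.43. Their median GC content was 50% and 53.8%, and 51.8% and 31.2% had their centre within a protein-coding gene. The median log2 ratio of fold between the lines hardly moved, at −0.14 and −0.13.

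Members followed each other along the chromosomes without H3K27ac between them. The members formed 27797 runs uninterrupted by an H3K27ac peak, of which 13784 were single regions and 293 held at least 10 members. The longest run had 29 members at chr10:48658608-48970368, within WDFY4 and LRRC18, of which WDFY4 serves antigen cross-presentation in dendritic cells. Its members had folds from 2.44 to 3.23 in C4-2B and from 2.00 to 3.10 in C4-2BER. Of 2 further runs, named after their values were seen, one of 22 members covered 1.07 Mb without a protein-coding gene on chromosome 3, with folds from 2.30 to 5.37 in C4-2B and from 2.02 to 4.11 in C4-2BER. The other, also of 22, lay in DLGAP2 on chromosome 8.

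Of 20033 protein-coding genes, 7688 had at least 1 member with its centre in the gene, and the mean over all gene bodies was 2.05 members per 100 kb. The 10 genes with the most members, a ranking made after the values were seen, were from 452 to 1372 kb long, and a count per gene favours long genes. DLGAP2, a scaffold protein of the postsynaptic density, held 81 members and 23 shared regions with H3K27ac. PTPRN2 held 76 and 38, and CAMTA1, a transcription activator, 55 and 32. ADARB2, an RNA-editing enzyme homologue of the brain, held 52 and 31. RBFOX3, the splicing factor known as NeuN, held 50 and 9, or 9.58 members per 100 kb. CACNA1C, the pore subunit of an L-type calcium channel, held 48 and 33. PARD3, a cell polarity gene, held 50 and 26, and a gene known only as ENSG00000285708 held 47 and 39. FRY held 46 and 25 and had the highest density of the 10, with 10.2 members per 100 kb. NAALADL2 had 55 members and 95 regions with H3K27ac, and the lowest density of the 10, with 4.01.

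Members made up a similar share of the shared regions on most chromosomes. The share ranged from 40.7% to 56.8% on the autosomes other than chromosome 19, where it was 31.4%, and was 29.1% on chromosome X. By length, the autosomes held between 11.1 members per Mb on chromosome 4 and 28.5 on chromosome 10.

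H3K18ac at the members differed little between the lines. The median log2 ratio of fold, C4-2BER over C4-2B, was −0.14 (−0.14 to −0.13). Of the members, 25.9% had the higher fold in C4-2BER, against 32.6% of all shared regions and 36.1% of those with H3K27ac in both lines. Over the whole H3K18ac lists the median fold of a peak was also higher in C4-2B, with 2.74 against 2.55. For shared regions with H3K27ac in both lines the median log2 ratio was −0.12. It was −0.33 where H3K27ac was in C4-2B alone and 0.14 where it was in C4-2BER alone. Over all shared regions it was −0.12, so the members lay 0.01 below that level. A ratio of 1.5 or more in favour of C4-2BER was found at 254 members (0.415%), where 2.16% of all shared regions passed. One of 1.5 or more in favour of C4-2B was found at 1441 members (2.36%), where 5.6% of all shared regions passed. Members and all shared regions alike needed a called peak in both lines, which leaves out sites whose H3K18ac was lost or gained. Members also had a narrower range of fold, in which a ratio of 1.5 is harder to reach. The 95th percentile of fold was 3.498 in C4-2B and 3.195 in C4-2BER, against 7.945 and 6.394 for all shared regions. The shares past 1.5 are thus not directly comparable. How much of the lower shares, and of the small difference between the lines, comes from the fold range was not tested. Past a ratio of 2 there were 11 members in the direction of C4-2BER and 28 in that of C4-2B.

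The ratio fell with GC content. In the deciles of shared regions ordered by GC of the central 500 bp, the median log2 ratio of the members was −0.11 in the lowest decile, −0.12 in the sixth and −0.23 in the highest. In regions with H3K27ac in any line it went from 0.01 to −0.06 and −0.34. In each of the 10 deciles the median of the members was below 0. Members made up 42.8% of the lowest decile, 60.4% of the eighth and 26.8% of the highest.

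**Figure D2:**
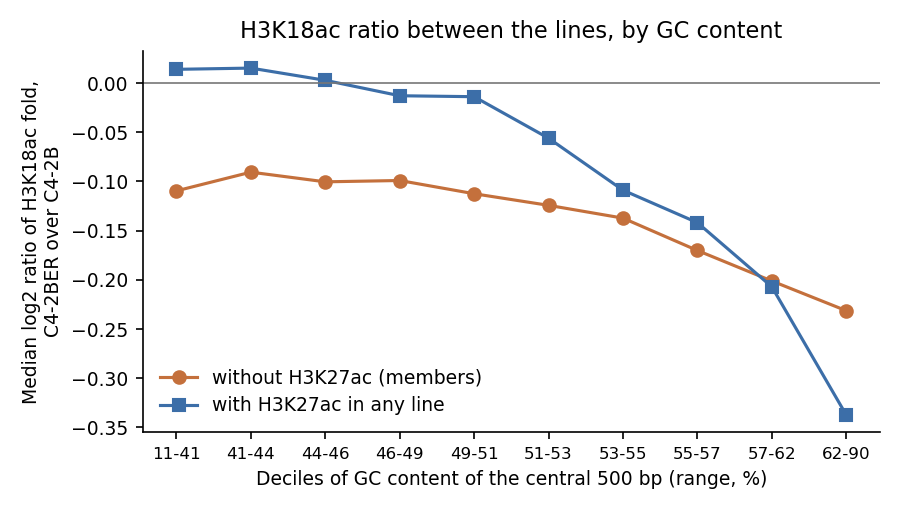
Points give the median log2 ratio of H3K18ac fold, C4-2BER over C4-2B (y axis), in deciles of GC content of the central 500 bp of each region (x axis), for members (circles) and for shared regions with H3K27ac in any line (squares). The members stay between −0.09 and −0.23, and the regions with H3K27ac run from 0.02 to −0.34.

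Some single members differed strongly. Among members with a fold of 3 or more in at least 1 line, the largest ratio was at chr2:156780154-156780986, 200884 bp from the start of GPD2, with a fold of 2.19 in C4-2B and 5.21 in C4-2BER. The next was chr16:35245813-35247006, with 2.28 and 5.27, in an intron of a noncoding gene. Named by the nearest start of a protein-coding gene, the following regions lay 55787 bp from RUBCNL with 2.25 and 5.11, 798992 bp from SLC16A7 with 1.89 and 4.15, and 223725 bp from ZFP42 with 2.25 and 4.89. In the other direction, chr2:161315790-161316261, in an intron of the proteasome gene PSMD14, had 4.84 in C4-2B and 1.93 in C4-2BER. The following regions lay 198491 bp from the start of SNX16 with 5.21 and 2.20, 1896927 bp from that of CDH6 with 5.16 and 2.23, in an intron of RIT2 with 4.93 and 2.13, and 59384 bp from the start of CTAGE1 with 4.35 and 1.91. At all 10 the fold of the weaker line was between 1.89 and 2.28, and that of the stronger line was above 4.

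The sequence of the members differed from that of regions with H3K27ac mainly in promoter motifs. The median GC content was 50.8% (50.8% to 51.0%) for members and 51.0% (51.0% to 51.2%) with H3K27ac in both lines, while the ratio of observed to expected CG pairs was 0.272 and 0.321. With H3K27ac in any line, the class used for the motifs below, the medians were 50.2% and 0.296, so GC content was then higher in members. Short motifs were searched on both strands in the central 500 bp. A match describes the letters and not a bound factor. The ETS letters CCGGAAGT were found in 0.443% of members and in 1.26% of shared regions with H3K27ac in any line, which became 1.08% when these were weighted to the members' GC content. The SP/KLF letters GGGCGGGG were in 3.57% and 8.39%, or 5.73% at the members' GC, and the NRF1 letters GCGCATGCG in 0.0768% and 0.486%, or 0.339%. These factors bind promoters with many CG pairs. A promoter window was overlapped by 11.5% of members and by 35.6% of regions with H3K27ac in any line, and the motif shares were not weighted for this. Motifs of distal elements were close to equal, with the AP-1 letters TGANTCA in 12.5% and 12.5%, the TEAD letters CATTCC in 22.4% and 22.2%, and the CTCF core CCACNAGGG in 2.46% and 2.29%. At the members' GC content the regions with H3K27ac had 13.1% for AP-1, 23.1% for TEAD and 2.42% for CTCF. The E-box CAGCTG was in 27.8% of members and 25.8% of the others, and the E-box CAGATG in 30.2% and 27.5%. The GATA-family letters AGATAA were in 18.4% and 19.3%, the HOXB13 letters CCAATAAA in 1.51% and 1.84%, the PAX core GCGTGAC in 1.40% and 1.89%, and the left part of the REST site, TTCAGCACC, in 0.522% and 0.536%. The right part of the REST site, GGACAGCGC, was in 0.173% and 0.361%. Over all 247646 H3K18ac regions the shares were 0.622% for ETS, 4.22% for SP/KLF, 0.187% for NRF1, 12.7% for AP-1, 21.9% for TEAD, 2.20% for CTCF, 25.5% and 28.6% for the E-boxes, 19.4% for GATA, 1.68% for HOXB13, 1.48% for PAX, and 0.504% and 0.1999% for the left and right parts of the REST site.

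The core letters TGTTTAC of the forkhead pioneer factors, such as FOXA1, were in 8.20% of members, in 7.84% of regions with H3K27ac and in 7.13% of all H3K18ac regions. Weighted to the members' GC content, the regions with H3K27ac had 8.49%, above the members, so which was higher depended on this weighting. Within the members this share rose with the distance to H3K27ac. It was 3.61% of 776 members with a gap under 1 kb, 5.11% at 1 to 5 kb, 7.60% at 5 to 20 kb, 11.4% at 20 to 100 kb and 16.9% (15.6% to 18.3%) of 2871 members at 100 kb or more. By the lower fold it was 7.31% at 2 to 2.5, 10.1% at 2.5 to 3, 13.3% at 3 to 3.5, 12.7% (9.47% to 16.7%) of 324 members at 3.5 to 4 and 11.4% (4.95% to 24.0%) of 44 members at 4 or more.

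Many of the distant matches held the same letters around the core. The most frequent 20-base sequences around the core in members at least 100 kb from H3K27ac were the following, with the core in capitals and the first example at chr12:83871426-83871445 on the minus strand and the second at chr1:240900965-240900984 on the plus strand of GRCh38.
Recurrent sequence 1: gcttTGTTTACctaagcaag
Recurrent sequence 2: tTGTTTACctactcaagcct
Both hold the 11 letters tTGTTTACcta, and they were chosen after the values were seen. The first sequence was in 80 and the second in 72 of the 2871 members at this distance. The 11 letters were in 245 of these members, among 486 with the core. As the sequences were picked for being frequent in distant members, a high share of their copies in members follows in part from the choice. Letters of this kind recur in the 5′ part of primate LINE-1 elements, transposable elements present in many copies. No repeat annotation was used here. The first sequence had 2054 exact copies on both strands of GRCh38, of which 346 (16.9%) lay in members, 449 (21.9%) in shared regions with H3K27ac and 1042 (50.7%) in no H3K18ac region. The second had 1966 copies, of which 648 (33.0%) lay in members, 319 (16.2%) in shared regions with H3K27ac and 568 (28.9%) in no H3K18ac region. Members covered 2.91% of the genome and shared regions with H3K27ac 7.69%. Reads that map to several copies can be misplaced or lost under the mapping quality minimum of 10, and the part of this in the peaks was not tested.

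When members whose windows hold the 11 letters were left out, the share with the forkhead core was 3.61%, 4.77%, 5.95%, 7.65% and 9.18% (8.13% to 10.3%, 241 of 2626 members) over the same distances. Every member left out holds the core, so this step cannot raise the share. Members whose windows hold similar but not identical letters were kept. The 11 letters themselves were in no member with a gap under 1 kb, in 0.356% at 1 to 5 kb and in 8.53% at 100 kb or more. They were picked in the most distant members, so their rise with distance is not a separate result. By the lower fold the share was then 5.74% at 2 to 2.5, 6.99% at 2.5 to 3, 8.25% at 3 to 3.5, 5.98% (3.82% to 9.25%) at 3.5 to 4 and 7.14% (2.46% to 19.0%) at 4 or more. Over all members it was 6.12%, against 6.51% of regions with H3K27ac.

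**Figure D3:**
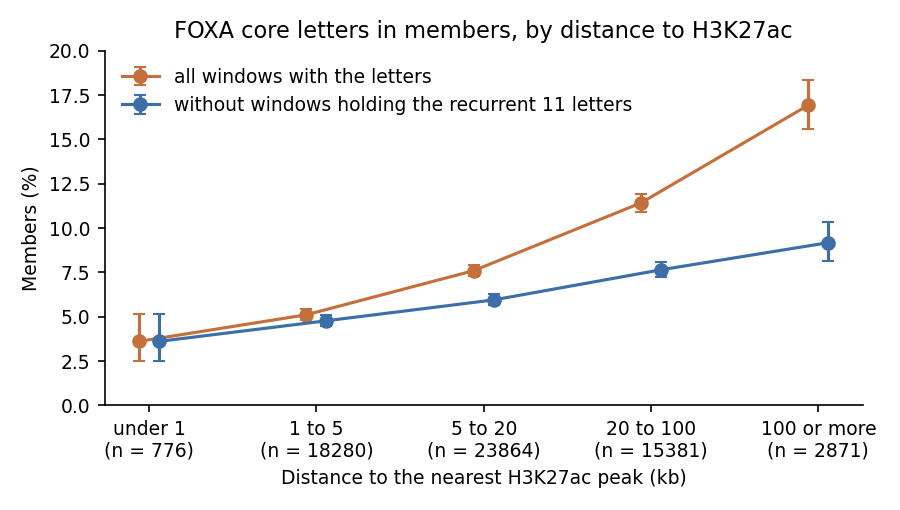
Points give the percentage of members whose central 500 bp held TGTTTAC on either strand (y axis), by distance to the nearest H3K27ac peak (x axis), with 95% Wilson intervals, for all members (n under each point) and after leaving out members whose windows hold the recurrent 11 letters. The share reaches 16.9% at 100 kb or more, and 9.18% after leaving them out, a step that cannot raise it.

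Promoters with H3K18ac alone were then counted by gene. A protein-coding gene was counted when a member overlapped any of its promoter windows and no H3K27ac peak of either line overlapped any of them. Of 20007 gene symbols, 1440 met this, a share of 7.2% over all genes. H3K27ac was present at 15341 genes and no peak of either mark at 2146. Among the 4666 genes without H3K27ac, 30.9% had such a promoter. A member covered a start site of 1190 of the 1440 genes. These genes rest on peaks of low confidence, since only 36 were left when H3K18ac peaks needed a −log10 q-value of 5, and they numbered 3034 when only H3K27ac peaks of at least 4-fold excluded a gene. The H3K18ac at these promoters was weak, with a median fold of 2.75 in C4-2B and 2.45 in C4-2BER over 1395 members, against 6.44 and 5.30 over 16515 regions with both marks at promoters with H3K27ac in both lines. The GC content was close, with medians of 57.8% and 58.0%, while the ratio of observed to expected CG pairs was 0.418 and 0.558.

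Ranked by lower fold, the strongest such promoter was that of FTMT, chr5:121851063-121852502, with folds of 4.74 and 4.40. DLC1, which encodes a GTPase-activating protein and tumour suppressor, followed with 3.69 and 3.69, and BMPER, a secreted BMP-binding protein, with 3.69 and 3.79. DYTN had 3.68 and 5.21, the largest difference among the 10. IL6, the inflammatory cytokine that activates STAT3, had 3.91 and 3.68 at chr7:22725830-22727749. The others were TMEM151B, TACR1, the receptor of substance P, NPAS3, a brain transcription factor, HOXD8 and LBH, with folds from 3.98 to 4.45 in C4-2B and from 3.54 to 3.66 in C4-2BER.

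Collagens, structural proteins of the extracellular matrix, had the highest share of the lists when all annotated starts were used. Of 44 collagen genes, 14 (31.8%, 20% to 46.6%) had H3K18ac alone, against 7.2% of all genes, and they were 73.7% of the 19 collagen genes without H3K27ac, against 30.9%. With canonical starts only, the share was 22.7% for collagens, 27.5% for keratin and keratin-associated genes, 27.1% for potassium channels and 25.9% for neuroendocrine markers, against 7.58% of all genes, so the order of these lists depended on the starts used. COL4A1 had folds of 3.10 and 3.18, COL5A2 of 3.36 and 3.09, and COL14A1 of 3.01 and 2.84. Of 149 keratin and keratin-associated genes, 44 (29.5%, 22.8% to 37.3%) were counted. They were 35.5% of those without H3K27ac (27.6% to 44.2%), an interval that holds the 30.9% of all such genes. The strongest were KRT12 with 3.83 and 3.11, KRT20 with 3.05 and 3.22, and KRTAP3-3 with 2.96 and 3.05. KRT5 and KRT14, the basal prostate keratins, were picked after the values were seen and had 2.91 and 2.41, and 2.54 and 2.69. Keratin genes lie side by side, so their promoters are not independent, and the 44 were reached by 44 different members.

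**Figure D4:**
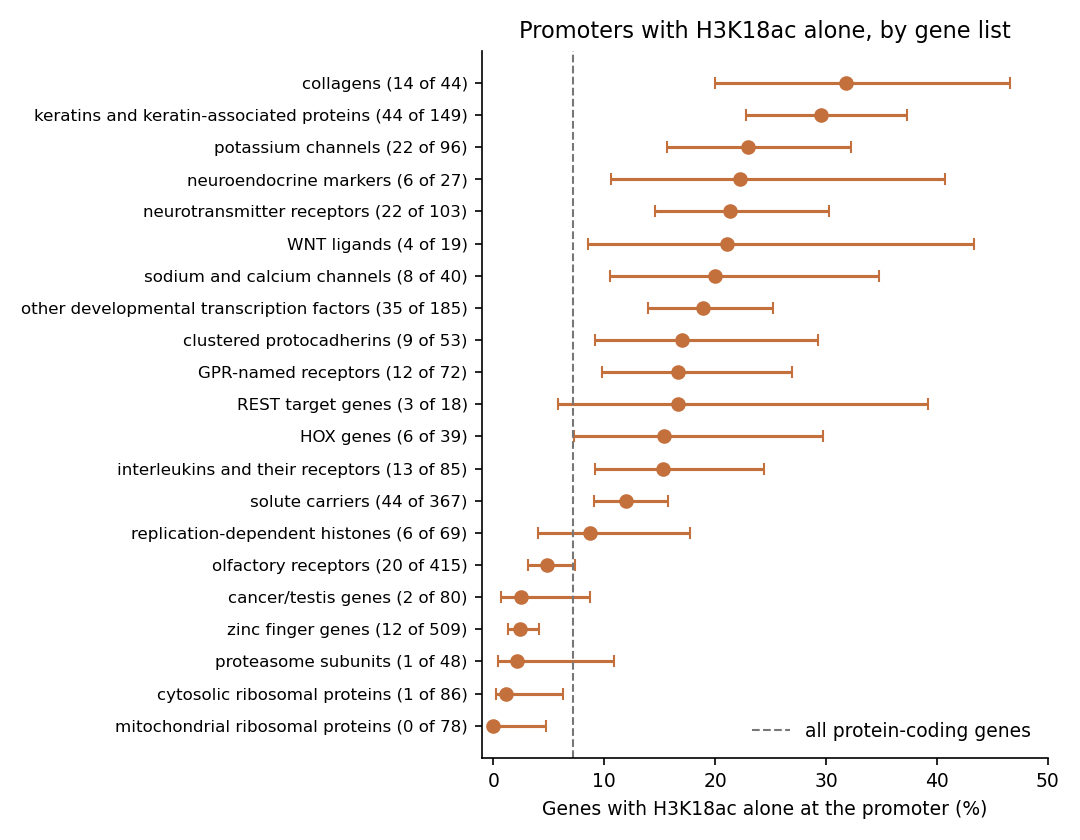
Points give the percentage of genes of each list with a member and no H3K27ac peak at their promoters (x axis) with 95% Wilson intervals, and the dashed line the 7.2% of all protein-coding genes. Collagens, keratins, ion channels, neurotransmitter receptors and developmental factors lie to the right of the line, and olfactory receptors and ribosomal, proteasome and zinc finger genes to the left.

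Genes of excitable cells were also frequent among them. Of 96 potassium channel genes, 22 (22.9%, 15.7% to 32.3%) were counted, against 7.2% of all genes, and a member covered a start site of all 22. They included KCNF1 with 3.84 and 3.53, KCNA4 with 3.16 and 3.37, and KCNE3 with 3.01 and 2.93. Of 103 neurotransmitter receptor genes, 22 (21.4%) were counted, led by GRIA2, an AMPA glutamate receptor, with 3.87 and 3.18, GABRP, a GABA receptor, with 3.09 and 3.07, and the adrenoceptor ADRA1D with 2.83 and 2.82. Of 40 sodium and calcium channel genes, 8 (20%) were counted, among them CACNG5, CACNG2 and SCN2B with folds between 2.57 and 3.19 in both lines. Among genes without H3K27ac these 3 lists reached 56.4%, 42.3% and 57.1%, against 30.9% of all. The interval of the neurotransmitter receptors, 29.9% to 55.8%, holds that 30.9%.

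Developmental regulators were present as well. Of 185 transcription factor genes of families such as PAX, SOX, FOX and TBX, 35 (18.9%, 13.9% to 25.2%) were counted, against 7.2% of all genes. Among those without H3K27ac the share was 59.3%, against 30.9% of all. TBXT, the mesoderm factor brachyury, had 3.24 and 3.90, FOXA2, an endoderm pioneer factor, 3.22 and 3.09, and PRDM8 3.202 and 3.07. Of 39 HOX genes, 6 (15.4%, 7.25% to 29.7%) were counted, HOXB1 and 5 genes of the HOXD cluster. The lower bound lay just above the 7.2% of all genes. HOXD8 had 4.02 and 3.57, HOXB1 2.84 and 2.51, and HOXD11 2.58 and 2.41. Of 19 WNT ligand genes, 4 (21.1%, 8.51% to 43.3%) were counted, including WNT6 with 3.57 and 3.35, WNT7A with 4.09 and 3.12, and WNT2 with 3.02 and 2.55.

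Of 27 neuroendocrine marker genes, 6 (22.2%, 10.6% to 40.8%) were counted, against 7.2% of all genes. They were 50% of the 12 without H3K27ac (25.4% to 74.6%), an interval that holds the 30.9% of all genes without H3K27ac. UCHL1, a neuronal deubiquitinase, had a fold of 4.89 in C4-2B and 3.30 in C4-2BER at chr4:41260231-41260661. SCG3, a granin of secretory granules, had 2.81 and 3.13 at chr15:51681193-51681690. INSM1, a transcription factor of neuroendocrine differentiation, had 2.91 and 2.56 at chr20:20366753-20369971. PCSK2, a prohormone convertase, had 2.55 and 2.59 at chr20:17225937-17227106. NCAM1, the adhesion molecule CD56, had 2.87 and 2.35 at chr11:113268906-113275345. CHGA, chromogranin A, had 2.499 and 2.29 at chr14:92922825-92924797, and the strongest H3K18ac peak in any of its windows was 4.31 in C4-2B. The fold was higher in C4-2B at 4 of the 6 genes and higher in C4-2BER at SCG3 and PCSK2. Of all members 25.9% were higher in C4-2BER, and of all shared regions 32.6%. At UCHL1 and NCAM1 the member lay at an alternative start, away from the canonical one. Of 18 REST target genes, 3 (16.7%, 5.84% to 39.2%) were counted, CHGA, GRIA2 and BDNF, the last with 3.55 and 2.75. This interval holds the 7.2% of all genes.

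**Figure D5:**
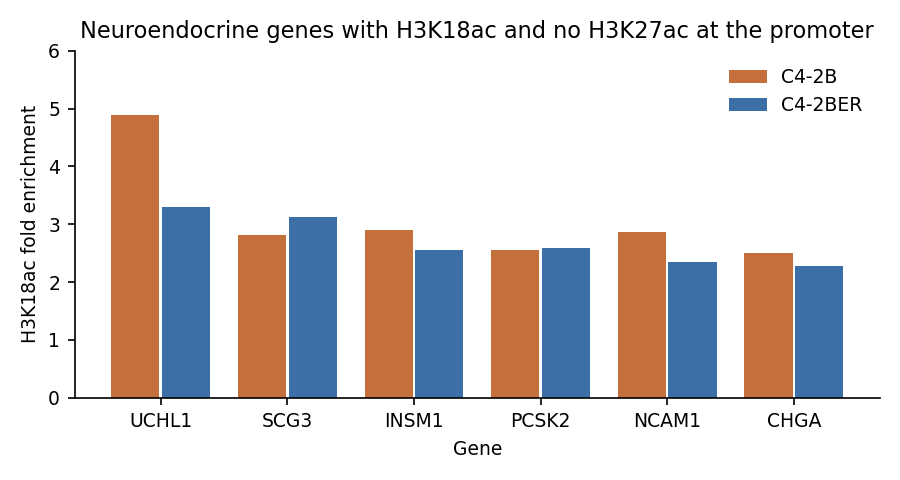
Bars give the H3K18ac fold enrichment (y axis) in C4-2B and C4-2BER of the strongest member at the promoters of the 6 neuroendocrine genes with H3K18ac and no H3K27ac, 1 pooled value per line with no error. UCHL1 stands highest with 4.89 in C4-2B, and the other values lie between 2.29 and 3.30.

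The remaining lists ranged from 17.0% down to 0, against the 7.2% of all genes. Solute carriers reached 44 of 367 (11.99%), with SLC30A8, SLC3A1 and SLC39A12 the strongest. Interleukins and their receptors reached 13 of 85 (15.3%), with IL6, IL18 and IL10, the clustered protocadherins 9 of 53 (17.0%), with PCDHGA9, PCDHGA6 and PCDHA4, and the receptors named GPR 12 of 72 (16.7%), with GPR101, GPR78 and GPR4. Replication-dependent histone genes reached 6 of 69 (8.70%), with H1-3, H2BC9 and H3C7, the last pair through the same member. Zinc finger genes reached 12 of 509 (2.36%), with ZNF662, ZNF572 and ZNF619, and H3K27ac was present at 472 of them. Olfactory receptors reached 20 of 415 (4.82%), with OR6B3, OR10AC1 and OR2AT4, while 340 of them had no peak of either mark. Cancer/testis genes, many of which are silent in most tissues outside the germ line, reached 2 of 80, PAGE4 and MAGEC3, and 62 had no peak. The cytosolic ribosomal proteins reached 1 of 86, RPL39L, and the proteasome subunits 1 of 48, the testis subunit PSMA8. Of 78 mitochondrial ribosomal protein genes none was counted, with an upper Wilson bound of 4.69%, and H3K27ac was present at every gene of the list. Among genes without H3K27ac, where all genes had 30.9%, the order of these lists differed. Clustered protocadherins then had 20.9% (11.4% to 35.2%), GPR-named receptors 29.3% (17.6% to 44.5%) and zinc finger genes 32.4% (19.6% to 48.5%). Solute carriers had 53.7% (42.9% to 64.0%), and interleukins and their receptors 38.2% (23.9% to 55.0%), an interval that holds the 30.9%.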

How the data were processed

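H3K18ac and H3K27ac ChIP-seq of C4-2B and C4-2BER cells was used. The authors fixed cells with DSG and formaldehyde, trimmed reads (Trimmomatic 0.33, per the submitters' processing notes), aligned them to GRCh38 with Bowtie2 (2.2.3 in those notes, another version in the study's methods), removed blacklisted regions, alignments under mapping quality 10 and duplicates (Picard), merged replicates and called broad peaks with macs2. The macs2 settings and use of the inputs are not given in the sources used here. The authors deposited 4 lists whose peaks carry a fold enrichment, a ratio over local background, and a −log10 q-value. No read counts are in them, so depth is unknown.

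Only peaks of the 22 autosomes and of X and Y were used, and 0 peaks passed a chromosome end of GRCh38. A region's fold in a line was the mean of its peaks weighted by width, and its q-value the highest of them. Gene models were GENCODE release 44. Shares have 95% Wilson intervals and medians 95% order-statistic intervals, and no test was made. The members and the 22 gene lists were chosen with earlier results of these data known. Genes and regions were named by rule. The rule took, by lower fold, the 10 strongest members, the 10 strongest at promoters with H3K18ac alone and up to 3 genes per list. It also took the 5 largest and 5 smallest ratios, the 5 widest members and the longest run. Those picked after seeing values are marked in the text, and all counted neuroendocrine genes were named. The merging, class and distance steps were tested on simulated data. Results were recomputed under 12 alternatives and 1 chosen after seeing the data. Repeat-masked share was not analysed here, and a few genes, motifs and lists are left out. Python 3.11.15, numpy 2.4.6, pandas 2.3.3, scipy 1.17.1 and matplotlib 3.10.9 were used.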

Additional observations from a re-analysis of the deposited data

How the results depend on the processing

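No paired analysis was possible because the authors merged the replicates before peak calling, and for the same reason no replicate could be left out. The 61172 members rest on weak peaks. With H3K18ac peaks of −log10 q of at least 5 only, 1179 members were left, with a median lower fold of 3.30, a log2 ratio of −0.16, a median GC of 48.8% and 36 genes with H3K18ac alone. With folds of at least 4 only, 44 members and 1 gene were left, with 4.27, −0.011, 50.6% and a promoter share of 13.6%, so the gene lists cannot be read at these thresholds. When only H3K27ac peaks with a fold of at least 4 excluded a region, there were 91721 members and 3034 genes, with 2.42, −0.12, 50.6% and 14.4%. The share of genes with H3K18ac alone was then 15.2% over all genes, 45.5% for collagens, 40.3% for keratins, 49.0% for potassium channels and 59.3% for neuroendocrine markers, and 5.70% for zinc finger genes. Regions of at least 500 bp gave 2.33, −0.14, 51.2% and 12.8%. The highest peak fold gave a median of 2.35, and centring the log2 ratio on all shared regions gave −0.013. The promoter share was 10.2% with 1000 bp on both sides of each start and 5.88% with canonical starts only. The whole region gave a median GC of 52.1%. Joining peaks only at an overlap of 50% of the shorter peak gave 58495 members, a margin of 1000 bp around H3K27ac 60396, and equal numbers of H3K27ac peaks 62652. The median log2 ratio of the members stayed below 0 wherever it was recomputed. With folds of at least 4 its interval, −0.079 to 0.021, held 0. At a −log10 q of at least 5, collagens, keratins and neurotransmitter receptors had a share of 0%, against 0.18% of all genes. Potassium channels then had 1.04%, developmental transcription factors 0.54% and neuroendocrine markers 3.70%. The share of members at least 100 kb from H3K27ac with the forkhead core was 9.18% after leaving out windows with the recurrent letters. These letters hold the core and were chosen after seeing the data. Whether members carry H3K27ac below the caller's threshold was not tested.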
